A study of Mus musculus with 4 samples.

Results

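The genes described here encode the kelch-BTB ubiquitin adapters, the proteins whose mouse symbols begin with Klhl or Kbtbd followed by a number. The deposited annotation gave such a symbol to 61 of 55681 probes, which stand for 44 genes, 36 Klhl and 8 Kbtbd, among 24561 gene symbols on the array. Members were taken by name, but the family was selected on the rise of Klhl30, whose signal in the 4 lines was known beforehand. The values of Klhl30 are therefore given as a description.

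Total RNA of 4 stable lines of L1210, a mouse lymphocytic leukemia line from the DBA subline 212, was hybridised with Cy3 to Agilent 1-colour arrays, 1 array per line. Cells of all 4 lines were infected with lentivirus and sorted as GFP-positive populations, so each line is a sorted, infected population of cells that were L1210 to begin with. L1210-control is the line labelled as control, L1210-Fbxw11a carried the full-length variant of Fbxw11, L1210-Fbxw11c a variant without exon 2, and L1210-Fbxw11d a variant without exons 2 and 3. The question was how expression of each variant altered the expression profile. With 1 array per line no replicate error exists, so no test between lines was possible, no p-value is given, and a difference is called only by its size, at least 2-fold.

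Kelch-BTB proteins recognise the substrates of one class of ubiquitin ligase. The BTB domain binds the scaffold Cul3, which brings in Rbx1 and a loaded E2 enzyme, while the kelch repeats fold into a propeller that holds the substrate. Fbxw11, the protein expressed in these lines, does the same work in another class: its F-box joins the Cul1 scaffold and its WD40 repeats bind phosphorylated substrates such as β-catenin and IκB.

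The level of each gene was read through 60-base probes, each printed on 1 spot. The first 30 bases of the probes on which the largest differences rest are shown with their mm9 position and strand, as the array design gives them. All 3 Kbtbd11 probes and both brighter Klhl32 probes are included because probes of these genes did not move together.
Klhl30, chr1:93258755-93258814, plus strand, transcript base 2793: ccctggggtgtgtcaaaagcttgcttccgg
Kbtbd11, chr8:15033192-15033251, plus strand, transcript base 6831: gttgggccagctgtttctgggtgtgcagtt
Kbtbd11, chr8:15027284-15027343, plus strand, transcript base 923: aaatctgatccggtgccaaggaaagggtat
Kbtbd11, chr8:15027026-15027085, plus strand, transcript base 665: gttctccaaaggagcaacacaagggagcct
Klhl32, chr4:24544420-24544479, minus strand, transcript base 2326: catggacatcctcagtgcttccctatcgtg
Klhl32, chr4:24609342-24609401, minus strand, transcript base 739: attacttggatctgtacagacttgctgacc
Klhl38, chr15:58146202-58146261, minus strand, transcript base 2078: aaatgccagtgaatgcttttcaaaaattcc
None of these probes shared its full sequence with another probe. Transcript bases count from the first base of the transcript each probe was designed on.

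Signals below are processed intensities scaled so that every array has the 75th percentile of L1210-control, 620.2; before scaling it was 627, 672 and 954 on the arrays of the Fbxw11a, Fbxw11c and Fbxw11d lines. The first 3 named lines lay on 1 slide and L1210-Fbxw11d on another, so slide and line cannot be told apart for L1210-Fbxw11d. Both Fbxw11 probes differed little between lines, by a log2 ratio to L1210-control between 0.02 and 0.31. They lie near transcript bases 3692 and 3803, and whether the introduced variants hold those bases was not given. These probes give no check of the labels. For these lines the paper reports high levels of the variants, checked by RT-PCR and western blot. Of the B lineage markers, 7 of 12 were well above background on every array and 5, Cd79b, Ebf1, Igll1, Rag1 and Ms4a1, on none. Of the macrophage and monocyte markers, 7 of 9 were well above background on every array, with a summed signal of 11216 to 14724.

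Most of the family was expressed in L1210 cells. Of the 44 genes, 33 (75%) had a signal well above background in the control and Fbxw11c lines, and 36 (81.8%) in the Fbxw11a and Fbxw11d lines. Across all gene symbols the shares were 68.7% in the control line and 71.6%, 70.4% and 73.7% in the Fbxw11a, c and d lines. On all 4 arrays 31 members were well above background, 70.5% of the family against 66.2% of all genes. A further 8 were so on 1 to 3 arrays and 5 on none.

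**Figure D1:**
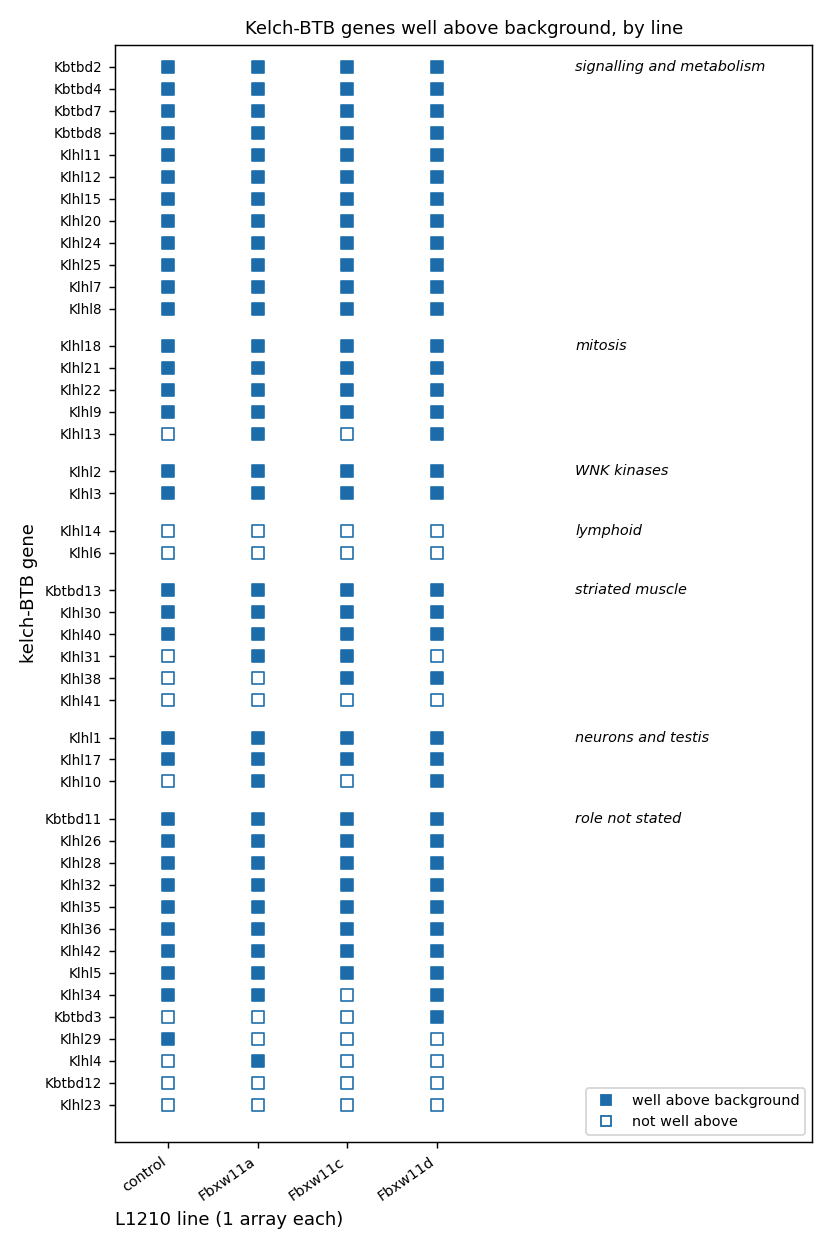
Each row is a kelch-BTB gene, grouped by role, and each column an L1210 line with 1 array; filled squares mark a signal well above background and open squares one that was not. All 12 genes of signalling and metabolism are filled in every line, and both lymphoid genes are open in every line.

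Detection is described by role group, and no test between groups was made. The named groups hold 2 to 12 genes each. A further 14 members have no role stated, and 8 of them were well above background on all 4 arrays. All 12 adapters of signalling and metabolism were well above background on every array. This group holds Klhl12, which marks Dishevelled and the vesicle coat protein Sec31, Klhl20, an adapter for the death kinase Dapk1 and for Pml, Klhl25, an adapter for ATP citrate lyase, and Kbtbd2, which limits the p85α subunit of PI3 kinase. Of the 5 mitotic adapters, Klhl9, Klhl18, Klhl21 and Klhl22 were well above background in every line. Klhl9, Klhl13 and Klhl21 act on Aurora B, Klhl18 on Aurora A and Klhl22 on Plk1. Both adapters of the WNK kinases, Klhl2 and Klhl3, were well above background in every line.

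The lymphoid pair was not. Klhl6, known from B cell receptor signalling and germinal centres, gave signals of 8.51, 6.44, 14.2 and 7.23 in the control, Fbxw11a, Fbxw11c and Fbxw11d lines, none well above background. Klhl14, another B cell adapter, gave 7.79, 3.47, 3.49 and 3.81 in the same order. Neither gene could be compared between lines. The remaining 3 genes below background on every array were Kbtbd12, Klhl23 and Klhl41, a muscle adapter linked to nemaline myopathy.

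Among the 6 genes known from striated muscle, Klhl30, Klhl40 and Kbtbd13 were well above background in every line, Klhl31 and Klhl38 in some, and Klhl41 in none. For Kbtbd13 this holds for the brighter probe alone. Of 12 skeletal muscle markers 5 were well above background on every array, and their summed signal over the list was 265 in the control line and 327, 298 and 248 in the Fbxw11a, c and d lines. The sum in L1210-Fbxw11a rests on Neb, the large scaffold of the thin filament and the 1 marker past 2-fold in any line, at 72.6 there and below background at 3.82 in the control line, 3.23 with Fbxw11c and 2.25 with Fbxw11d. Without Neb the sums were 261 in the control line and 254, 294 and 245 in the Fbxw11a, c and d lines. Neb was thus high in the line where Klhl30 was highest, and not in the other Fbxw11 lines. The myosin heavy chains Myh1 and Myh4 were below background on every array, while Myh2 was well above it with Fbxw11a and Fbxw11d, at 15.8 and 15.5. Neb and the myosins are named after their values were seen. The part of muscle markers in the levels of Klhl30 was not tested.

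Klhl30 is a member known mainly from skeletal and heart muscle, with no substrate stated here. Its only probe gave 379 ± 38.2 in the control line, 2209 ± 221 with Fbxw11a, 1295 ± 129.6 with Fbxw11c and 1386 ± 139 with Fbxw11d, where each error is the scanner software's estimate for the single spot. All 3 Fbxw11 lines were higher than the control line, and L1210-Fbxw11a was the highest. The log2 ratios to L1210-control were 2.54, 1.77 and 1.87, or 5.82-, 3.41- and 3.65-fold. Ratios between single spots of this brightness had an SD of 0.10 to 0.13 on the log2 scale. It was combined from the spread within each array of 399 probes printed on 10 spots each. This covers the spread between spots, and not that between arrays or cultures.

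Between the Fbxw11 lines, L1210-Fbxw11a exceeded L1210-Fbxw11c by a log2 ratio of 0.77 and L1210-Fbxw11d by 0.67. L1210-Fbxw11c and L1210-Fbxw11d were 0.10 apart, which is within the spread between single spots. L1210-control, L1210-Fbxw11a and L1210-Fbxw11c shared a slide, so the first pair of ratios to control holds within it. With no scaling between arrays the ratio for L1210-Fbxw11d was 2.49. The deposited gene ontology gave Klhl30 root terms only, as for 20 of the 44 members, while 13 members carried the term for the Cul3-RING ubiquitin ligase complex. In these bulk RNA samples, fewer cells that express a gene and less RNA of it per cell cannot be told apart.

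**Figure D2:**
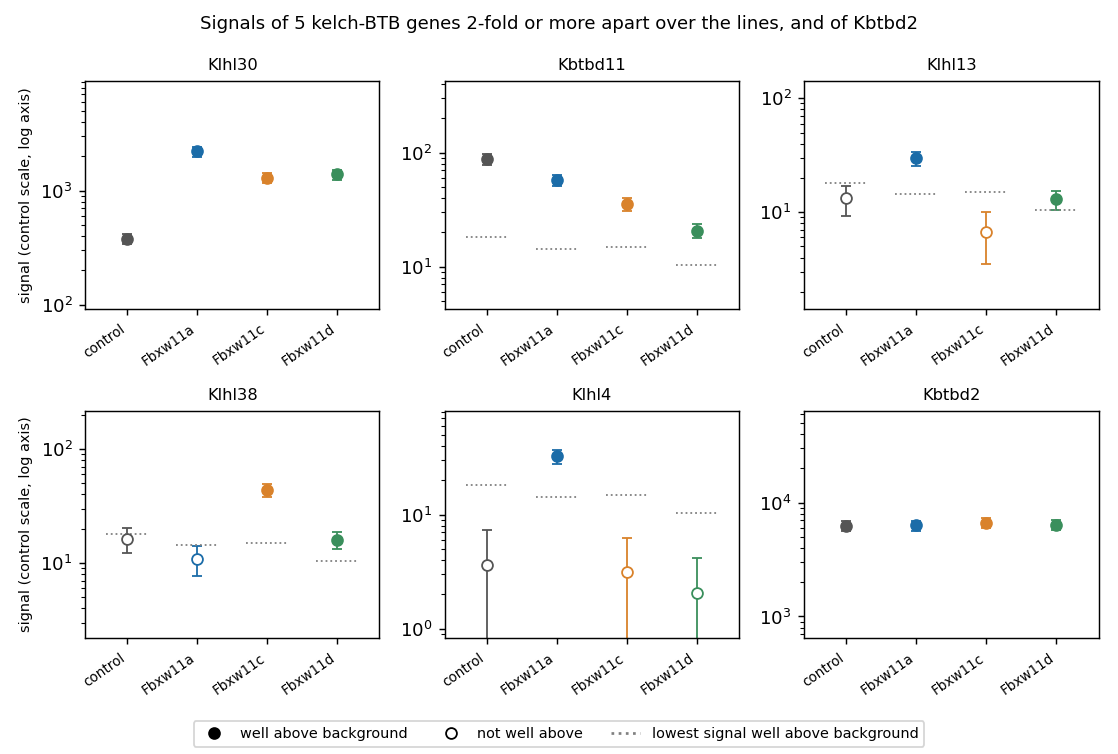
Signals on the scale of L1210-control (log axis, each panel spanning the same fold) of the 5 kelch-BTB genes that lay 2-fold or more apart over the lines, and of Kbtbd2, which had the smallest range; bars are the scanner software's error for the spot, open circles are signals not well above background, and dotted lines the lowest signal well above background on that array. Klhl30 runs from 379 in L1210-control to 2209 in L1210-Fbxw11a, while Kbtbd2 stays between 6244 and 6585.

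None of the genes around Klhl30 was called 2-fold higher than control in all 3 Fbxw11 lines, though not every probe could be compared. Within 250 kb of its probe on chromosome 1 lie 21 probes of 13 other genes and 1 probe without a gene symbol, 22 in all, of which 19 were well above background on at least 1 array. A 2-fold difference from L1210-control was found for 2 of the 22, 1 in L1210-Fbxw11a and the other in L1210-Fbxw11c, where 4.53% and 3.93% of all genes differed as much; nothing is read from so small a count. Both were picked out with their values in view. Fam132b encodes the hormone erythroferrone. Its called probe was below background in L1210-control at 16.5, then 89.0 with Fbxw11a, 30.2 with Fbxw11c and, again below background, 6.64 with Fbxw11d. The other Fam132b probe was below background in every line, at 4.21 in the control line and 3.20, 3.25 and 2.07 in the Fbxw11a, c and d lines. Per2, a repressor of the circadian clock, gave 98.1 in both the control and the Fbxw11a line, against 26.5 with Fbxw11c and 53.7 with Fbxw11d.

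Between 1 and 3 members differed from control by at least 2-fold in each line. In L1210-Fbxw11a it was 1 of 36 compared, Klhl30, or 2.78%, beside 4.53% of the 17649 genes compared in all (2.46% higher and 2.06% lower). In L1210-Fbxw11c it was 3 of 34, Klhl30 and Klhl38 higher and Kbtbd11 lower, or 8.82%, beside 3.93% of 17515 genes (1.63% higher and 2.30% lower). The count was 1 with the normexp background correction, which also adds an offset of 50 to every signal, and 2 with the mean of each gene's probes. In L1210-Fbxw11d it was 2 of 35, Klhl30 higher and Kbtbd11 lower, or 5.71%, beside 6.08% of 17447 genes (1.11% higher and 4.97% lower). With the mean of each gene's probes the count was 1. All of these counts include Klhl30, which the choice of family fixed, those of the Fbxw11c and Fbxw11d lines include Kbtbd11, whose probes disagree in direction, and the 3 comparisons share the single control array.

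**Figure D3:**
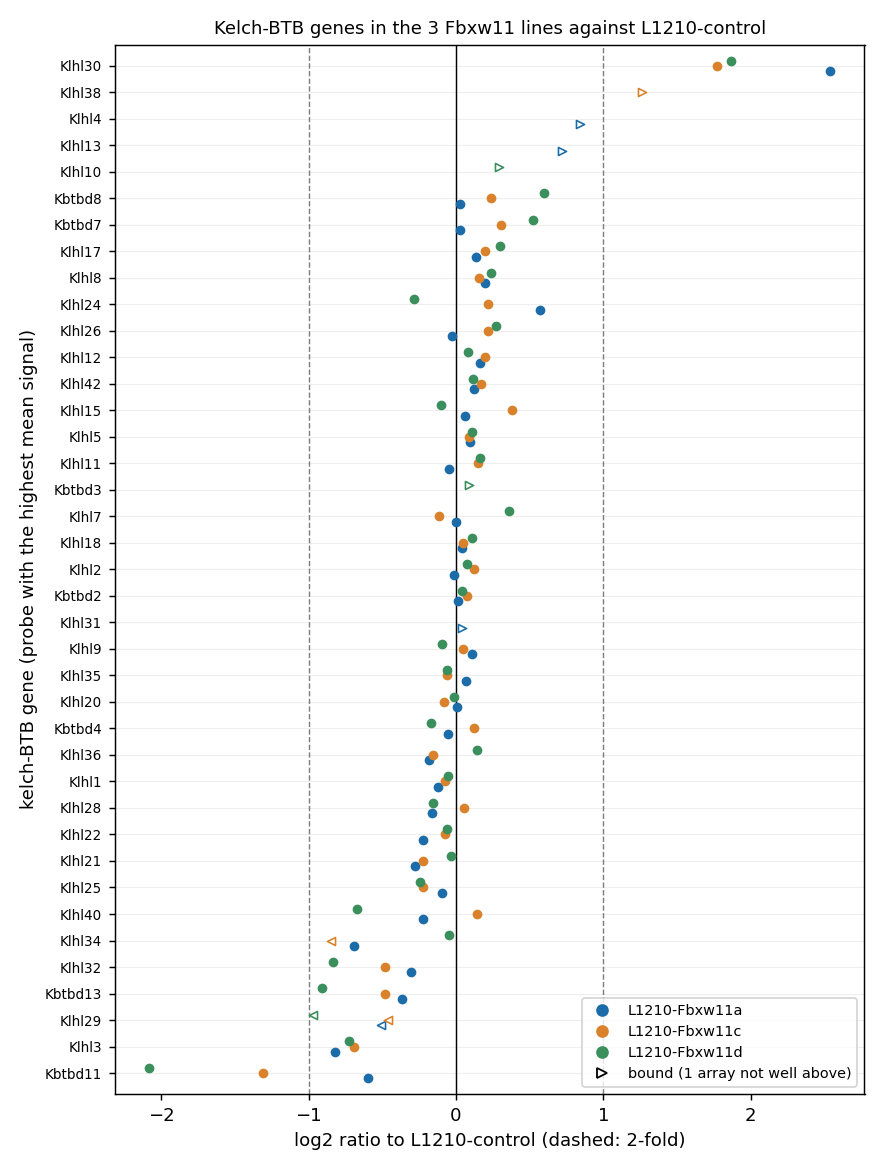
Log2 ratio to L1210-control (horizontal axis) of each kelch-BTB gene that could be compared, in L1210-Fbxw11a (blue), L1210-Fbxw11c (orange) and L1210-Fbxw11d (green); open triangles are bounds where 1 of the arrays was not well above background, and dashed lines mark 2-fold. Klhl30 lies beyond the upper line in all 3 lines, Klhl38 in L1210-Fbxw11c by its bound of 1.27, and Kbtbd11 beyond the lower line at -1.31 and -2.08.

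Over the family the ratios centred near 0. Among members measured on both arrays the median log2 ratio was -0.01 with Fbxw11a (16 of 32 above 0), 0.08 with Fbxw11c (19 of 31) and -0.02 with Fbxw11d (15 of 32). For all genes the medians were 0.00, 0.02 and 0.04. The range over the 4 lines reached 2-fold for 5 of 39 members, Klhl30, Kbtbd11, Klhl38, Klhl13 and Klhl4, beside 12.7% of all genes. The members' share was 12.8%, from which nothing is read about the family: Klhl30 was fixed by its choice, and Klhl38, Klhl13 and Klhl4 were well above background on some arrays alone. Among the 31 members well above background on all 4 arrays, 2 reached 2-fold, beside 8.39% of all such genes. They were Klhl30, which the choice of family fixed, and Kbtbd11, whose probes disagree. The median range was 0.28 on the log2 scale, against 0.35 for all such genes.

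Kbtbd11, an adapter whose substrate is not stated here, showed the largest difference below control in the family, but by 1 of its 3 probes alone. The probe at transcript base 6831, the one with the highest mean signal, gave 87.7 in the control line, 57.9 with Fbxw11a, 35.4 with Fbxw11c and 20.7 with Fbxw11d. Its log2 ratios to control were -0.60, -1.31 and -2.08, where single spots of this brightness differed by an SD of 0.34, 0.40 and 0.67. The control line was the highest and L1210-Fbxw11d the lowest.

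The other Kbtbd11 probes were not lower in the Fbxw11 lines. At transcript base 923 the signals were 23.0 in the control line, 46.3 with Fbxw11a, 24.9 with Fbxw11c and 29.7 with Fbxw11d, log2 ratios of 1.01, 0.12 and 0.37 with a spot spread of 0.59, 0.66 and 0.72, so that the last 2 lay within it. At base 665 the control line was not well above background at 20.4 and the Fbxw11 lines gave 38.4, 38.3 and 35.2, at least 1.88-, 1.87- and 1.73-fold higher, log2 bounds of 0.91, 0.91 and 0.79 beside a spread of 0.64, 0.62 and 0.70. No direction can be given for the gene: with the mean of its probes the log2 ratios were 0.44, -0.10 and -0.31, past 2-fold in no line. With the normexp correction and its offset the brightest probe gave -0.73 in L1210-Fbxw11c, short of 2-fold, and -1.23 in L1210-Fbxw11d. All 3 probes match 1 transcript, and bases 665 and 923 lie far from the probe at base 6831.

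Klhl32, which has no role stated here, showed the same disagreement in L1210-Fbxw11a. Its brightest probe, at transcript base 2326, gave 86.1 in the control line, 69.6 with Fbxw11a, 61.8 with Fbxw11c and 48.2 with Fbxw11d, and was lower in every Fbxw11 line. The probe at base 739 gave 32.5, 58.4, 27.0 and 22.1, so that L1210-Fbxw11a was the highest. The log2 ratio to control in L1210-Fbxw11a was -0.31 by the first and 0.84 by the second, with a spot spread of 0.31 and 0.50. The remaining probe, at base 185, passed the background flag with Fbxw11d alone, at 12.2.

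**Figure D4:**
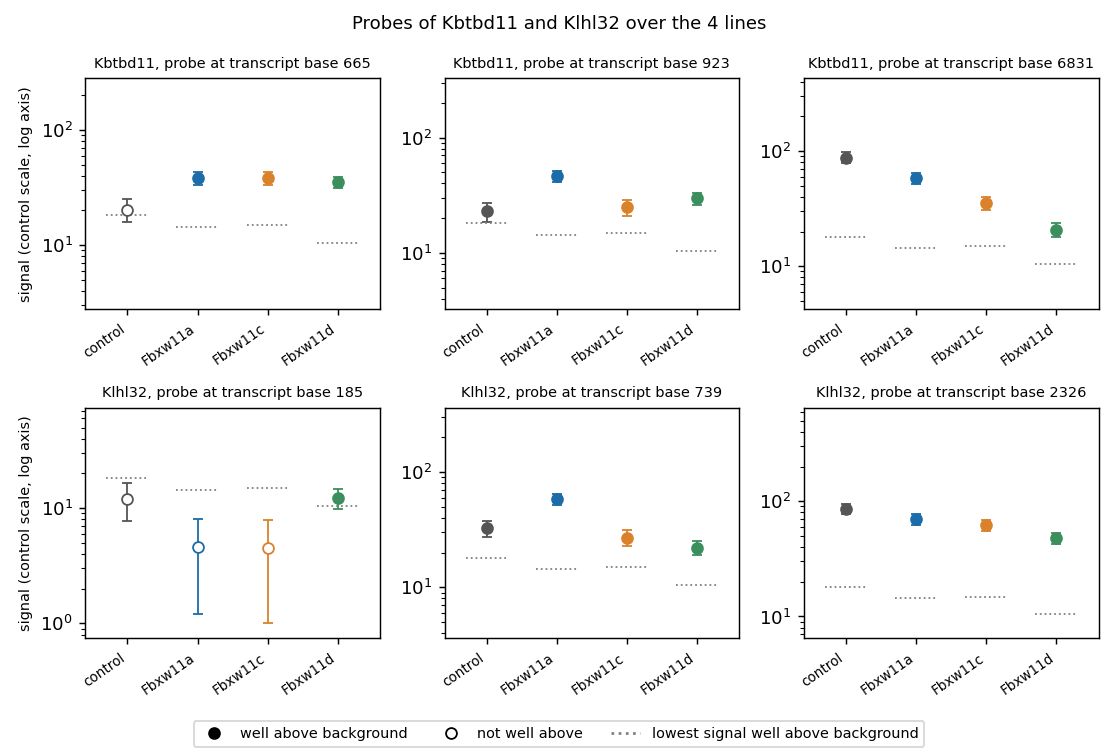
Signals on the scale of L1210-control (log axis, each panel spanning the same fold) of the 3 probes of Kbtbd11 (top) and of Klhl32 (bottom) in the 4 lines; bars are the scanner software's error for the spot, open circles are signals not well above background, and dotted lines the lowest signal well above background on that array. The Kbtbd11 probe at base 6831 runs from 87.7 down to 20.7, while those at bases 923 and 665 are lowest in L1210-control, at 23.0 and 20.4.

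Among the other members with several usable probes, Klhl11 ran from -0.20 to 0.18 over its 3 probes and the 3 lines, and Klhl25 from -0.24 to 0.08 over 2 probes. All 3 Klhl22 probes were lower than control in every line, from -0.63 to -0.06. The brighter Klhl5 probe gave log2 ratios of 0.09, 0.09 and 0.11, and its dim probe, below background in the control line, a bound of 0.62 in L1210-Fbxw11d.

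Klhl38, Klhl13 and Klhl4 were called by range alone or by a bound, and each was dim. Klhl38, expressed in muscle, gave 16.3 in L1210-control and 10.9 in L1210-Fbxw11a, both below background, against 43.5 in L1210-Fbxw11c and 16.0 in L1210-Fbxw11d. L1210-Fbxw11c was at least 2.40-fold above the control line, a log2 bound of 1.27, where spots of this brightness differed by an SD of 0.65. With the normexp correction and its offset of 50, more than any of these signals, the value was 0.34; the parts of the correction and the offset in this were not tested.

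Klhl13, the mitotic adapter that pairs with Klhl9, was well above background in L1210-Fbxw11a at 29.8 and in L1210-Fbxw11d at 13.0, and not in L1210-control at 13.2 or L1210-Fbxw11c at 6.73. Klhl9 itself gave 6476, 6978, 6689 and 6052, a range of 1.15-fold. Klhl4, with no role stated here, was well above background only in L1210-Fbxw11a, at 32.4, beside 3.64, 3.13 and 2.07 in the control, L1210-Fbxw11c and L1210-Fbxw11d lines. Against L1210-control the bounds were 1.65-fold for Klhl13 and 1.79-fold for Klhl4, both short of 2-fold, because the lowest signal well above background on the control array was 18.1. The opposite pattern was found for Klhl29, whose brighter probe passed the background flag in the control line alone, at 20.4. That probe was at least 1.42-, 1.37- and 1.96-fold higher there than in the Fbxw11a, c and d lines. These bounds differ through the lowest signal well above background on those arrays, 14.4, 14.9 and 10.4. The other Klhl29 probe was below background in every line, at 3.69 in the control line.

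The remaining members seen on some arrays were as dim. Klhl10, an adapter of developing spermatids, was well above background at 17.6 with Fbxw11a and 22.1 with Fbxw11d, and not at 14.2 in the control line or 12.7 with Fbxw11c. Klhl31, a muscle adapter, was so at 18.6 with Fbxw11a and 17.2 with Fbxw11c, and not at 13.6 in the control line or 9.65 with Fbxw11d. Klhl34 was not well above background with Fbxw11c alone, at 12.2 beside 26.8, 16.6 and 25.9 in the other lines, and Kbtbd3 was well above it with Fbxw11d alone, at 19.2. For none of these 4 did the measured ratio or bound come to 2-fold, but a bound does not limit the difference from above, and Klhl34 had a 2-fold range in the authors' normalized values and with no filter on dim probes, as had Klhl34, Klhl10 and Kbtbd3 with no scaling between arrays. Their presence or absence rests on signals near the lowest that counted as well above background, 10.4 to 18.1.

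Klhl3, the WNK adapter mutated in familial hyperkalaemic hypertension, gave 63.8 in L1210-control against 36.2, 39.5 and 38.6, log2 ratios of -0.82, -0.69 and -0.73 with a spot spread of 0.41 to 0.51. The Fbxw11 lines lay close together and below the control. Klhl2, which shares the WNK substrates, gave 541, 536, 590 and 571 and differed by 1.1-fold at most.

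Kbtbd8, an adapter of neural crest specification, and Kbtbd7, which acts on the Rac activator Tiam1, were highest in L1210-Fbxw11d. Kbtbd8 gave 118 in the control line, 121 with Fbxw11a, 139 with Fbxw11c and 178 with Fbxw11d. Kbtbd7 gave 135, 138, 167 and 194 in the same order. Their log2 ratios in L1210-Fbxw11d were 0.59 and 0.53. Kbtbd13, a muscle adapter linked to nemaline myopathy, ran by its brighter probe from 27.4 in L1210-control to 14.6 in L1210-Fbxw11d. This 1.87-fold range was the widest of the 29 members on all 4 arrays that stayed under 2-fold. The log2 ratio of that probe in L1210-Fbxw11d was -0.91, beside a spot spread of 0.87. The other Kbtbd13 probe was below background in every line, at 4.17 in the control line and 3.90, 3.53 and 2.07 in the Fbxw11 lines.

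The muscle adapter Klhl40, which stabilises nebulin, gave 22.5 in the control line, 19.2 with Fbxw11a, 24.7 with Fbxw11c and 14.1 with Fbxw11d, a range of 1.76-fold. Klhl17, a synaptic actin-binding member, gave 477 in the control line against 524, 547 and 588, and its log2 ratios were 0.14, 0.20 and 0.30 with a spot spread of 0.09 to 0.12.

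The smallest ranges over the 4 lines, 1.05- to 1.1-fold, were those of Kbtbd2, Klhl20, Klhl18, Klhl5, Klhl1, a neuronal actin-binding member, and Klhl35. Klhl35 was dim, at 21.4 to 23.4, where single spots differ by an SD of 0.68 to 0.80 on the log2 scale, so its small range does not show that it was steady. Kbtbd2 gave 6244 in the control line, 6296 with Fbxw11a, 6585 with Fbxw11c and 6411 with Fbxw11d. Within the mitotic group, Klhl22 gave 11724 in the control line and 10030, 11154 and 11229.9 in the Fbxw11a, c and d lines, and Klhl21 gave 2313 against 1908, 1985 and 2256. Their ranges were 1.17- and 1.21-fold, and in L1210-Fbxw11d both lay within the spot spread of control. Klhl18 gave 1679.9, 1731, 1734 and 1809, with every ratio to control within the spot spread.

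In the signalling and metabolism group, Klhl12 gave 5219 in the control line and 5842, 5975 and 5531 in the Fbxw11a, c and d lines. Klhl20 gave 2167, 2173, 2048 and 2149, and Klhl25 gave 2749.6, 2573, 2358 and 2321. The ranges of these genes were 1.14-, 1.06- and 1.18-fold. Klhl15, an adapter for a regulatory subunit of the phosphatase PP2A, was highest with Fbxw11c, at 454 beside 349, 364 and 325. Klhl7, mutated in retinitis pigmentosa, was highest with Fbxw11d, at 616 beside 479, 479.5 and 442. The widest range of the group, 1.81-fold, was that of the dim Klhl24, at 25.5, 37.9, 29.6 and 20.9, with every ratio to control within its spot spread. The group ran from -0.28 to 0.59 in log2 ratio and the mitotic group from -0.28 to 0.11 for members measured on both arrays.

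Genes that work with the family are given by list. All 5 kelch-BTB proteins with other symbols, among them Keap1, the adapter for Nrf2, were well above background in every line, and 0 of them differed 2-fold in any line. Of 23 genes of the Cul3 ligase and its neddylation, 22 were well above background on all arrays. None was called at 2-fold in L1210-Fbxw11a or L1210-Fbxw11c, and 1 was in L1210-Fbxw11d, where the share of all genes was 6.08%. It was Cand2, well above background only in the control line, at 24.9. The Cand2 values are bounds, at least 1.74-, 1.68- and 2.40-fold lower in the Fbxw11a, c and d lines. They differ through the lowest signal well above background on each array, so a fall in L1210-Fbxw11d alone is not shown. Cand2 was not called with no scaling, nor when both arrays had to be well above background. The list's median log2 ratios were 0.04, 0.04 and 0.16. Of 18 other BTB adapters of Cul3 on the array, such as Spop, 17 could be compared and 0 of them differed 2-fold in any line, with medians of 0.01, 0.08 and 0.09. Of 19 known substrates of kelch-BTB adapters 18 could be compared, Dapk1 being below background on every array, and 1 differed, in L1210-Fbxw11d. It was Krt14, the keratin degraded through Klhl24, at 188 in the control line and 293, 256 and 380.1 in the Fbxw11a, c and d lines. In L1210-Fbxw11d this was 2.02-fold, close to the threshold, and Krt14 was not called with normexp. Cand2 and Krt14 are named after their values were seen.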

How the data were processed

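Gene expression was measured on 4 arrays, 1 per line. Arrays were scanned and read by the authors with Agilent Feature Extraction (10.7.1.1 per the file headers, 9.1 per the submitters' processing notes). The deposited scanner files hold spot intensity (processed signal, its error and detection flags), and the deposited table holds linear signals and log2 normalized values; the authors' normalization is not given in the sources used here. Array design positions are mm9. Deposited linear signals equalled the scanner's for 55249 probes on 1 spot (largest relative difference 1.2e-06).

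For this report, spots marked as outliers were dropped (102 to 167 per array), spots of a probe averaged, log2 processed signals centred, array by array, on the 75th percentile of its gene spots, and signals printed on the scale of L1210-control. A probe was well above background where at least 0.5 of its spots carried that flag; 0 gene spots were saturated. Where 1 array was not well above background, the ratio is a bound against the higher of its own signal and the lowest signal well above background there (18.1, 14.4, 14.9 and 10.4). A gene was read from its probe with the highest mean signal. A difference was called at 2-fold, the study's threshold. The number of arrays limits the precision, and no test was made.

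All 44 symbols matched RefSeq by Entrez ID. A probe with the deposited symbol Zbtbd6, whose ID is RefSeq's Kbtbd6, was not counted; its log2 ratios were -0.37, -0.25 and -0.25. Genes named are Klhl30, members 2-fold apart or with disagreeing probes, the 6 with the smallest range and the lymphoid pair; other members and genes named were chosen after their values were seen. Members and lists were chosen with earlier results of these data known. The calling code was tested on simulated data. Tools were R 4.3.3, limma 3.58.1, Python 3.11.15, numpy 2.4.6, pandas 2.3.3 and matplotlib 3.10.9.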

Additional observations from a re-analysis of the deposited data

Results flagged for a closer look

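The Klhl32 probe at transcript base 739 ran in opposite directions in different Fbxw11 lines: its log2 ratio to L1210-control was 0.84 with Fbxw11a, -0.27 with Fbxw11c and -0.55 with Fbxw11d, so that L1210-Fbxw11a and L1210-Fbxw11d lay 1.40 apart. Single spots of this brightness gave ratios with an SD of 0.50, 0.58 and 0.74, so the values with Fbxw11c and Fbxw11d lay within that spread of 0. The difference was not tested, since each line has 1 array.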

How the results depend on the processing

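With 1 array per line nothing shows how far cultures of a line differ, and the spot spread of 0.3 or more below a signal of about 90 leaves differences of dim members uncertain. No paired analysis was possible because each line has a single array. Alternatives changed 1 choice at a time, except that normexp changed the background correction and added an offset of 50 together; no scaling between arrays, and all alternatives for the gene lists, were chosen after seeing the data. Among the values for counts and Klhl30, 90 stayed near the main value, 28 moved and 0 reversed.

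The number of members called in L1210-Fbxw11a (1) was 6 with no filter on dim probes, 2 with the probe of the largest ratio and 6 at 1.5-fold. In L1210-Fbxw11c (3) it was 1 with normexp, 7 with no filter, 2 with both arrays well above background, 2 when probes of a gene were averaged, 5 at 1.5-fold and 1 at 3-fold. In L1210-Fbxw11d (2) it was 5 with no filter, 1 with the mean of probes, 4 with no scaling and 8 at 1.5-fold. The members with a 2-fold range (5) were 2 with normexp, 11 with no filter, 2 with all arrays well above background, 9 with no scaling and 14 at 1.5-fold. Klhl13 was in that set neither under quantile normalization, median centring, normexp or no scaling nor with all arrays well above background. The Cul3 and neddylation list (1) gave 0 with both arrays well above background and 3 with no scaling. Those 3 were Uba3, Dcun1d1 and Cops8, and not Cand2. Other BTB adapters (0) gave 1 with no filter and 2 with no scaling, and substrates (1) gave 0 with normexp, 2 with no filter and 3 with no scaling.

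Klhl30 stayed past 2-fold in every line under every alternative, at 2.34 to 2.56 in L1210-Fbxw11a, 1.62 to 1.89 in L1210-Fbxw11c and 1.84 to 2.49 in L1210-Fbxw11d. It was 2.34 and 1.62 with normexp in the first 2 lines, 1.89 in L1210-Fbxw11c and 2.49 in L1210-Fbxw11d with no scaling, and 2.09 in L1210-Fbxw11d with median centring. The alternatives for filter and choice of probe could not move Klhl30, which has 1 probe, well above background on every array. Their unchanged values are among the 90 above. The family was selected on the rise of Klhl30, so its values here remain a description. No scaling moved the median of all genes to 0.02, 0.13 and 0.66, and median centring to 0.26 in L1210-Fbxw11d. Ratios were also compared with the main value for Kbtbd11, Klhl38, Klhl13, Klhl4, Klhl32, Klhl3 and the 6 members with the smallest range. Of these 297 values 26 had the opposite sign, each where the main value was under 2-fold. The largest was 1.01, for Kbtbd11 in L1210-Fbxw11a. Ratios of the other members named were not compared in this way.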
